A study of Rattus norvegicus with 6 samples.

Results

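The solute carriers described here are the rat transporters of organic ions, nucleosides, vitamins, choline, heme, small peptides and bile acids. They were taken by gene symbol, as all genes of the families Slc10, Slc13, Slc15, Slc17, Slc18, Slc19, Slc22, Slc23, Slc28, Slc29, Slc44, Slc46, Slc47, Slc48, Slc52 and Slco. The rule found 44 of the 14607 genes listed. RNA-Seq had been carried out on 3 samples of vascular smooth muscle cells (VSMCs) and 3 samples of mid-capillary pericytes (mcPCs), freshly sorted from the cortex of male Sprague-Dawley rats aged 4 to 5 weeks, with several rats pooled in each isolation. VSMCs were cells from arterioles held back on a mesh, depleted of CD31 and CD11b positive cells and then sorted positively with a lectin. mcPCs were what remained of the filtrate once CD31, CD11b, GLAST and O4 positive cells had been removed, so they carried no positive selection. Each gene has the authors' mean in VSMCs and in mcPCs, with no value per sample. The authors' own comparison was not used, so no spread between isolations is given here and no difference was tested here. The intervals below are 95% exact binomial intervals on the reads summed over a cell type, and they cover counting error only.

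Cells of the vessel wall import and export charged and polar molecules through such carriers. SLC22 proteins move organic anions, cations and zwitterions across the plasma membrane, OATPs (the products of Slco genes) move larger organic anions such as steroid conjugates, thyroid hormones and prostaglandins, and SLC19, SLC23, SLC46 and SLC52 proteins import vitamins. SLC29 proteins let nucleosides equilibrate across membranes, and SLC44 proteins carry choline. In the rodent brain Slc22a8, Slco1a4, Slco1c1 and Slco2b1 are best known from the endothelium of the blood-brain barrier, and several others from kidney and liver.

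Abundance was read in TPM, the share of a library's transcripts scaled to a fixed total and corrected for transcript length. In VSMCs 26 of the 44 genes reached 0.8 TPM, and in mcPCs 27 did. Slco3a1 was the most abundant in VSMCs at 165 TPM, ahead of Slc48a1 at 108 TPM and Slc44a2 at 92.7 TPM. These 3 genes made up 68.1% of the 537 TPM summed over all the transporters in VSMCs. In mcPCs Slc22a8 came first at 198 TPM, ahead of Slc19a1 at 49.7 TPM and Slco3a1 at 46.3 TPM. Slc22a8 alone held 42.4% of the 467 TPM summed over the transporters in mcPCs and 0.675% of the VSMC sum. Slc48a1 (35.8 TPM), Slc44a2 (28.3 TPM), Slc22a17 (15.9 TPM), Slc44a1 (11.5 TPM) and Slc22a18 (10.2 TPM) came next in mcPCs. In VSMCs the order went on with Slc44a1 (27.9 TPM), Slc23a2 (22.9 TPM), Slc22a17 (18.0 TPM), Slc10a3 (14.7 TPM) and Slc19a1 (14.2 TPM). Without values per sample it cannot be said which neighbours in either order differ beyond their spread.

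**Figure D1:**
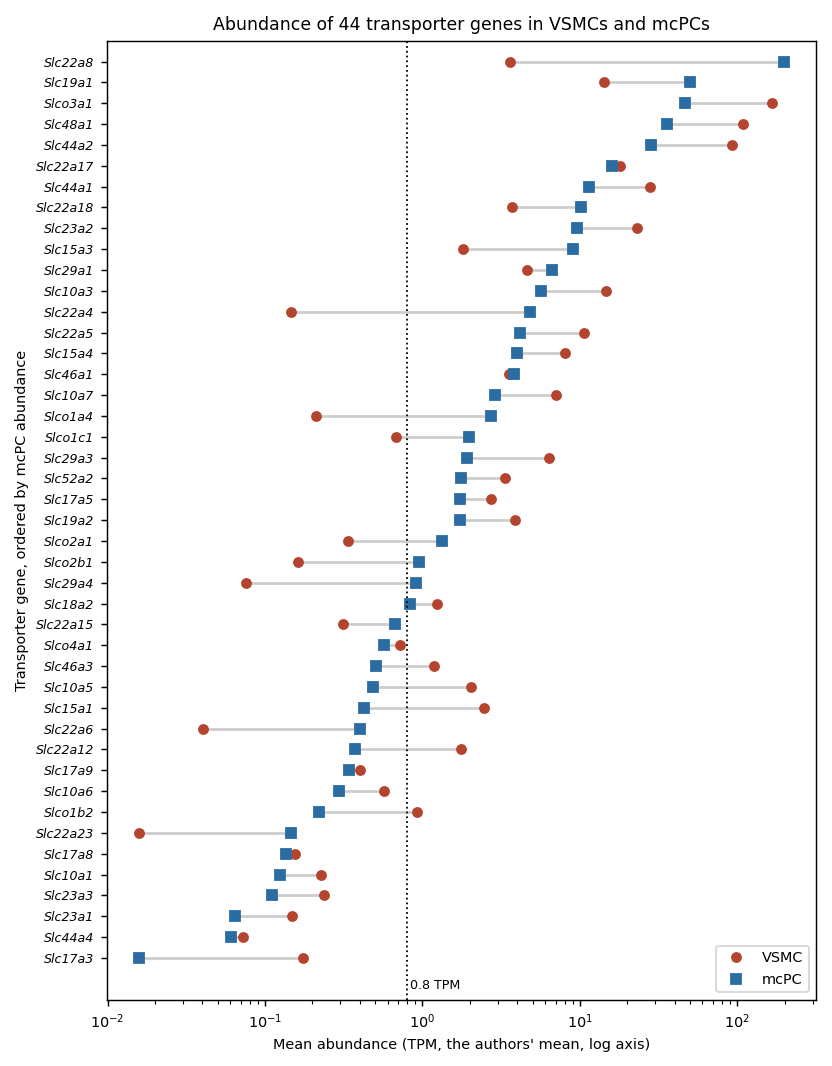
Abundance of the 44 transporter genes in VSMCs (circles) and mcPCs (squares), as the authors' mean TPM on a log axis, ordered by the level in mcPCs. Slc22a8 stands at 198 TPM in mcPCs and 3.62 TPM in VSMCs, while Slco3a1 is the highest gene of VSMCs at 165 TPM. The dotted line marks 0.8 TPM.

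TPM is a share of a library, and in mcPCs 54.4% of it belonged to 17 listed erythrocyte genes, against 0.722% in VSMCs. On mean TPM the median gene had a log2 ratio of -1.72. Differences between the cell types are therefore given as the log2 ratio of the authors' mean normalized counts, mcPCs over VSMCs, for which the median over all genes was 0.01. Changes named below are relative to that. The mcPC value was at least 2-fold higher for 22 of the 44 transporters (50%), against 22.0% of all genes. Only Slc17a3 was at least 2-fold higher in VSMCs, at a log2 ratio of -1.62, against 13.9% of all genes. It had 0.175 TPM in VSMCs against 0.0159 TPM in mcPCs. On TPM with 0.1 TPM added and centred on the median of all genes its log2 ratio was 0.47. The added amount is larger than its mcPC level, so that value does not show the ratio to be reversed. The remaining 21 were under 2-fold. The median log2 ratio of the transporters was 1.06, and 39 of 44 were above 0. Of the 26 transporters that reached 0.8 TPM in VSMCs, a filter that does not use the mcPC level, 9 were at least 2-fold higher in mcPCs (34.6%, against 13.1% of all genes so filtered) and 0 in VSMCs (against 15.8%). Their median was 0.55, against -0.11 for all genes so filtered. The authors applied the same VSMC cutoff in their own final gene list, as a means to filter out transcripts of contaminating cells. All other genes with an Slc symbol, 216 in number, had 61 at least 2-fold higher in mcPCs, 25 in VSMCs and a median of 0.34.

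Of the SLC22 and OATP genes 12 of 16 passed 2-fold in favour of mcPCs, against 22.0% of all genes. The family medians were 3.29 for Slc22 and 3.31 for Slco. Among the other 28 genes 10 passed it and the median was 0.82. Many of these genes were low in VSMCs. Of the 9 that passed 2-fold and reached 0.8 TPM in VSMCs, Slc22a8, Slc22a17 and Slc22a18 were of the SLC22 family and none was an OATP gene. The rest were Slc15a3, Slc17a5, Slc18a2, Slc19a1, Slc29a1 and Slc46a1, so under that filter the passing genes were not mostly in these 2 families. None of the 5 Slc10 genes and none of the 3 Slc23 genes passed 2-fold.

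**Figure D2:**
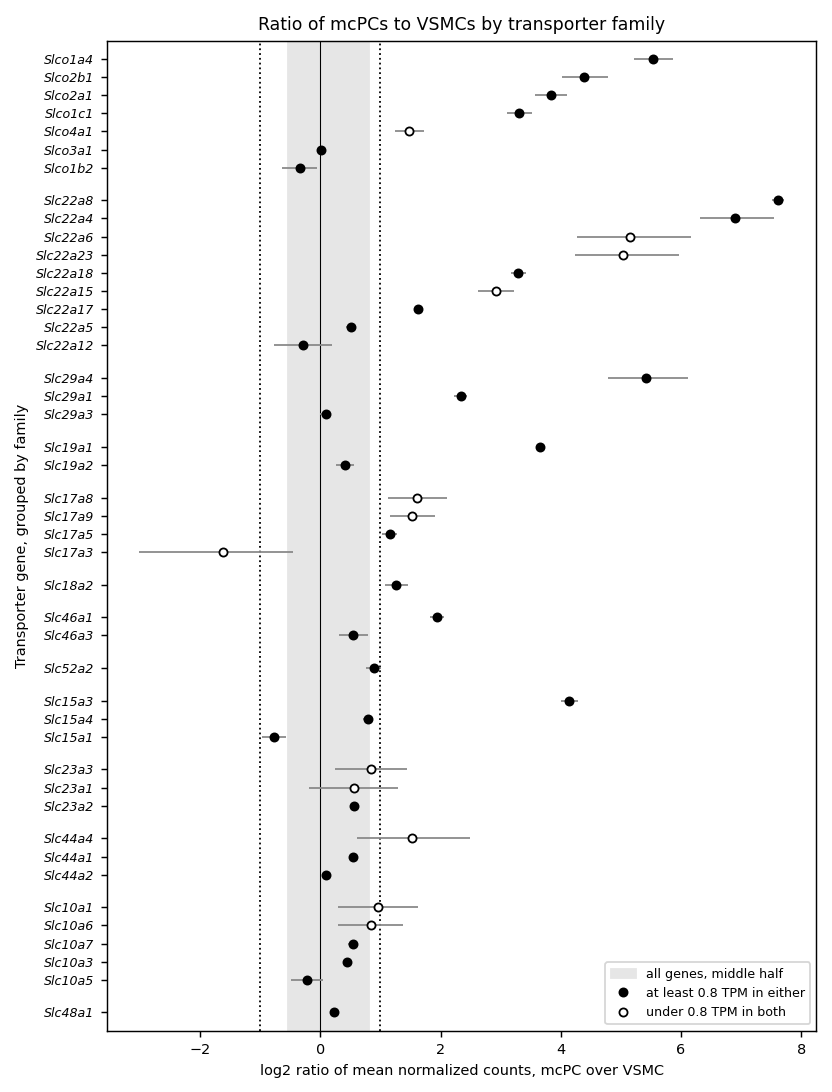
Log2 ratio of mean normalized counts, mcPC over VSMC, for the 44 transporter genes grouped by family. Bars are 95% counting intervals, open circles are genes under 0.8 TPM in both cell types, dotted lines mark 2-fold and the grey band spans the quartiles of all genes. The Slc22 and Slco families reach 7.61 and 5.53, while all 5 Slc10 genes lie between -0.22 and 0.96.

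Slc22a8 (ENSRNOG00000018086) encodes OAT3, an exchanger that takes up organic anions such as neurotransmitter metabolites, uremic toxins and many drugs. It had 278 reads per VSMC sample and 28961 reads per mcPC sample. Its normalized count was 196-fold higher in mcPCs, a log2 ratio of 7.61 with a counting interval of 7.52 to 7.71. In TPM it was at the 29.9th percentile of all genes in VSMCs and at the 98.7th percentile in mcPCs. Its reads came out as whole numbers in both cell types, as they do where none is shared out between similar transcripts. Slc22a6, which lies next to it on chromosome 1 (GRCr8 gene order) and encodes the related exchanger OAT1, was also higher in mcPCs, at a log2 ratio of 5.14 (4.27 to 6.17), but at only 0.399 TPM against 0.0406 TPM. On so few reads the value depended on the scaling and pseudocount, and the alternatives gave 1.83 to 4.66. Slc22a6 and the other genes under 0.8 TPM in both cell types that are named here were chosen after their values were seen.

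The sequences just upstream of the start of 3 of these genes that were far higher in mcPCs, and of Slco3a1, which was even, are shown so that their start regions can be compared. The 4 genes were picked after their values were seen. They are the 250 bases before the start in RefSeq's GRCr8, a later build than the Rnor_6.0 transcript set behind the values. Capitals mark GC boxes (GGGCGG, either strand) and the core of the HNF1 motif (GTTAAT, either strand).
Slc22a8, chr1:214927034-214927283, plus strand: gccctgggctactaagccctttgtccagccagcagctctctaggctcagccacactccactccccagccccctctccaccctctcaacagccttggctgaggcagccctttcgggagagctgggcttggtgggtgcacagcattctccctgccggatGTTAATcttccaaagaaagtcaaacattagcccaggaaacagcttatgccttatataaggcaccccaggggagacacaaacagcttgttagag
Slc22a4, chr10:38679921-38680170, minus strand: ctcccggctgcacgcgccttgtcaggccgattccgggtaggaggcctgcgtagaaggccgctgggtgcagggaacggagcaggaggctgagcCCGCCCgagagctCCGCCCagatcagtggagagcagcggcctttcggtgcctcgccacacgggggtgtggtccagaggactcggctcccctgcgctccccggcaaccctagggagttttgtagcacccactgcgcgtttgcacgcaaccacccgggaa
Slc19a1, chr20:11600937-11601186, minus strand: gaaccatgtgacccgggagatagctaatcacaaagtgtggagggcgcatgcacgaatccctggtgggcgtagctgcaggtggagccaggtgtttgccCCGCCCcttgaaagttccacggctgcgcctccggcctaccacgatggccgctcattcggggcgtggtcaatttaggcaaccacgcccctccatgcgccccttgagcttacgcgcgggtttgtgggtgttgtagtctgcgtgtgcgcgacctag
Slco3a1, chr1:137797837-137798086, minus strand: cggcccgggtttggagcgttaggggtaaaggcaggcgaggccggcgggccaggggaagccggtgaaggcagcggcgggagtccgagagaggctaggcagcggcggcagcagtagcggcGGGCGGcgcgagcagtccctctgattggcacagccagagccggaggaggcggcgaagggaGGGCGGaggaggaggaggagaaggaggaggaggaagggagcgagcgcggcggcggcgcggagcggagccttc

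The Slc22a8 window held 2 CpG dinucleotides, a number below which 18.1% of all windows fell, no GC box and an HNF1 core. The windows of Slc22a4, Slc19a1 and Slco3a1 held 22, 20 and 29 CpG dinucleotides and at least 1 GC box each. Over 33469 such windows the median was 5 CpG dinucleotides, 30.5% held a GC box and 6.45% an HNF1 core. Of the 37 transporters with a window in the table, 22 held a GC box and 5 an HNF1 core, and their median was 13 CpG dinucleotides. A match of these letters is a description of the sequence and was not measured as binding.

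Slc22a4 (ENSRNOG00000046195) encodes OCTN1, the carrier of the antioxidant ergothioneine. It had 8 reads per VSMC sample and 491 reads per mcPC sample, or 0.146 TPM and 4.81 TPM, a log2 ratio of 6.90 (6.32 to 7.54), which was 4.32 to 6.67 under the alternatives. Slc22a5, which encodes the carnitine carrier OCTN2, was under 2-fold at 0.51 (0.43 to 0.58), with 10.6 TPM in VSMCs against 4.18 TPM in mcPCs. Some of the mcPC reads of both were not whole numbers, as happens where reads are shared out between similar transcripts. Slc22a17 (ENSRNOG00000016414), whose product binds the iron carrier lipocalin-2, had 18.0 TPM in VSMCs against 15.9 TPM in mcPCs and a log2 ratio of 1.63 (1.57 to 1.68), which turned to -0.17 on TPM. Slc22a18, an imprinted gene of unsettled substrate, had 3.71 TPM and 10.2 TPM, at 3.29 (3.16 to 3.42). The little known carriers Slc22a15 (2.92) and Slc22a23 (5.04), under 0.8 TPM in both cell types, were also higher in mcPCs, Slc22a23 on 4.33 reads per VSMC sample and at 1.09 to 4.63 under the alternatives. Slc22a12, the urate exchanger URAT1, was at -0.28 (-0.77 to 0.20), and its effective transcript length differed between the cell types, 480 bases in VSMCs and 818 bases in mcPCs.

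Among the OATP genes, mcPCs had at least 2-fold more of 5 out of 7. Slco1a4 (ENSRNOG00000047493), a carrier of steroid conjugates, bile acids and cardiac glycosides, stood at 0.210 TPM in VSMCs against 2.73 TPM in mcPCs, a log2 ratio of 5.53 (5.22 to 5.87). Slco2b1, a carrier of steroid sulfates, stood at 0.163 TPM and 0.947 TPM, a log2 ratio of 4.39 (4.02 to 4.78). Slco2a1, the prostaglandin transporter, stood at 0.335 TPM and 1.33 TPM, a log2 ratio of 3.83 (3.56 to 4.11). Slco1c1, the thyroxine carrier, stood at 0.678 TPM and 1.98 TPM, a log2 ratio of 3.31 (3.10 to 3.53). All 4 were low genes in VSMCs, at percentiles 5.78 to 15.1 of all genes in TPM. In mcPCs they were at percentiles 24.2 to 43.3. Slco4a1, which also carries thyroid hormone, was at 1.48 and under 0.8 TPM in both.

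Slco3a1 (ENSRNOG00000032798), which carries prostaglandins and thyroxine, was another kind of OATP gene in these cells. It was at the 93.7th percentile of all genes in VSMCs and at the 94.8th percentile in mcPCs. Its log2 ratio was 0.00 (-0.02 to 0.03), and it was -0.52 with counts scaled to the same total and -1.83 on TPM. Slco1b2, the liver OATP that lies between Slco1c1 and Slco1a4 on chromosome 4 (GRCr8 gene order), was at -0.34 (-0.63 to -0.05), on 110 reads per VSMC sample and 47.3 reads per mcPC sample. On centred TPM with 0.1 TPM added it was at 0.04, a value that the added amount affects, since its mcPC level was 0.222 TPM. On normalized counts its sign was opposite to that of both neighbours. Several close relatives of Slco1a4 have no row, and reads of such copies can be split between them by the counting, so the Slco1a4 and Slco1b2 values are uncertain to that extent, although all Slco1a4 reads were whole.

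**Figure D3:**
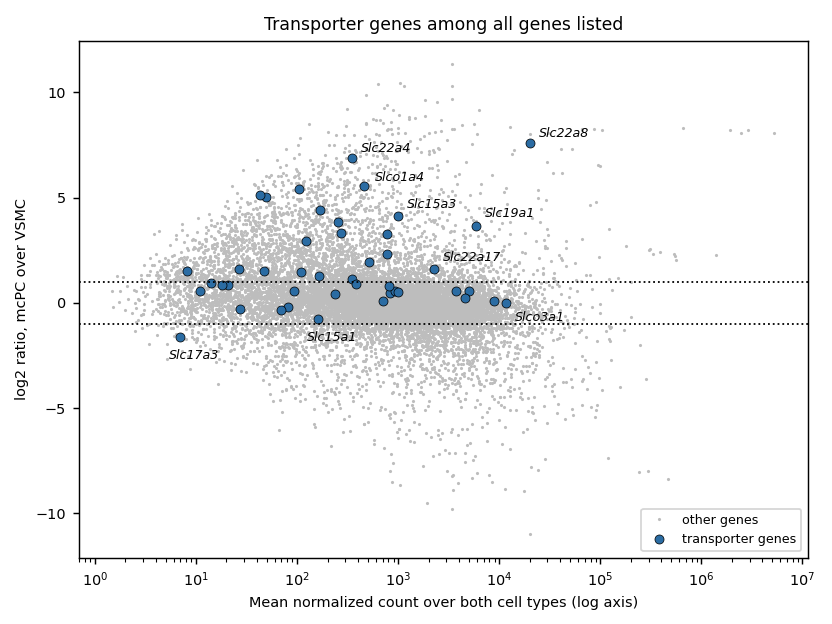
Log2 ratio of mean normalized counts, mcPC over VSMC, against the mean normalized count over both cell types (log axis) for the 44 transporter genes (large points) and all other genes (small points). Dotted lines mark 2-fold. Slc22a8 is set apart from the other transporters by a high count together with a ratio of 7.61, and Slco3a1 has a high count at a ratio of 0.00.

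Markers of several other cell types were also higher in mcPCs than in VSMCs. Of 13 endothelial markers with a row, out of 15 listed, 9 were at least 2-fold higher in mcPCs, at log2 ratios from 2.20 to 6.34. The median of the 13 was 4.01, and Pecam1 and Ly6c1 have no row. The others of the 13 were under 2-fold, with Flt1 (-0.78), Slc2a1 (-0.50) and Ocln (-0.33) on the VSMC side and Esam at 0.43. The summed level of the 13 was 652 TPM in VSMCs against 247 TPM in mcPCs, most of it Esam and Slc2a1. Erythrocyte genes held 54.4% of the TPM in mcPCs against 0.722% in VSMCs, which lowers every other mcPC level. The TPM sums of marker lists here and below are therefore levels within a cell type and not differences between cell types. Cldn5, the main claudin of brain endothelium, stood at 0.643 TPM in VSMCs against 15.4 TPM in mcPCs. Of the 22 transporters that were at least 2-fold higher in mcPCs, 19 had a TPM in mcPCs below that of Cldn5, the 4 OATP genes Slco1a4, Slco1c1, Slco2a1 and Slco2b1 among them, and 3 had a higher one. These 3 were Slc22a8, 12.8 times as abundant as Cldn5, Slc19a1 and Slc22a17. Of 12 fibroblast and meningeal genes 11 have a row, in 13 rows. Of these rows 7 were at least 2-fold higher in mcPCs and 4 in VSMCs, with a median of 1.54 and sums of 1075 TPM in VSMCs against 235 TPM in mcPCs. Slc6a13, a GABA carrier of that list, was at 3.06 TPM in VSMCs against 132 TPM in mcPCs. Of the choroid plexus list 5 of 10 have a row, with 4 at least 2-fold higher in mcPCs, a median of 4.11 and sums of 4.78 TPM and 33.8 TPM. Aqp1, also an erythrocyte gene, made up most of that, and Ttr, Kl and Otx2 have no row. Microglia and macrophage markers (5 of 11 with a row) were all at least 2-fold higher in mcPCs, with a median of 5.56 and sums of 0.727 TPM and 12 TPM. The part of any of these cells in the transporter values was not tested. In such bulk samples, fewer cells of a type and less RNA per cell cannot be told apart.

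The markers of the sorted cell types themselves followed the labels. All 10 smooth muscle genes were at least 2-fold higher in VSMCs, with a median of -6.58, and 7 of 10 mural cell and pericyte genes passed 2-fold in favour of mcPCs, with a median of 3.11. Notch3 was the exception to that direction that passed 2-fold, at -1.31. Astrocyte markers (7 of 10 with a row) had 6 at least 2-fold higher in mcPCs, a median of 3.27 and sums of 14.8 TPM and 22.8 TPM. Aldoc gave 13.6 TPM of the VSMC sum. Neuron markers (7 of 10) had 6 higher in mcPCs and 1 in VSMCs, a median of 4.28 and sums of 363 TPM and 30.9 TPM. Nrgn, the 1 higher in VSMCs, gave 360 TPM of the VSMC sum and 7.38 TPM of the mcPC sum. Oligodendrocyte markers (7 of 10) had 6 higher in mcPCs, a median of 1.73 and sums of 19.8 TPM and 20.7 TPM.

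Among the vitamin carriers, that of folate stood out. Slc19a1 (ENSRNOG00000001232), the reduced folate carrier, had 14.2 TPM in VSMCs against 49.7 TPM in mcPCs. Its reads per sample were 1236 and 7897, and the log2 ratio was 3.65 (3.60 to 3.70), a 12.5-fold higher normalized count. Slc46a1, the proton-coupled folate carrier, was at 1.95 (1.83 to 2.06), with 3.57 TPM in VSMCs against 3.84 TPM in mcPCs. Slc46a3, a lysosomal member of the same family, was at 0.55. Of 15 genes of folate handling with a row, 6 were at least 2-fold higher in mcPCs (against 22.0% of all genes) and 3 in VSMCs (against 13.9%). Their median was 0.43. The mitochondrial enzymes Mthfd2 (2.04) and Mthfd1l (3.05) and the folate receptor Folr1 (4.11) were among those on the mcPC side. Folr1, also on the choroid plexus list, rested on 4.67 reads per VSMC sample. Mtr (-1.0), the methionine synthase, and Aldh1l2 (-1.98) were among those on the VSMC side. The same shares of all genes stand beside the gene lists below, and no list was tested against them.

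The other carriers of the vitamin families Slc19, Slc23 and Slc52 were under 2-fold. Slc19a2, a thiamine carrier, was at 0.41, with effective lengths of 1696 bases in VSMCs and 1930 bases in mcPCs. Slc52a2, a riboflavin carrier, was at 0.89 (0.76 to 1.01), with 3.35 TPM in VSMCs against 1.75 TPM in mcPCs. Among 6 genes of thiamine and riboflavin use, 0 were at least 2-fold higher in mcPCs and 2 in VSMCs, namely Rfk, the riboflavin kinase, at -1.13 and Thtpa at -1.20. Slc23a2, the widespread ascorbate carrier SVCT2, was well represented in both cell types, at 22.9 TPM in VSMCs against 9.59 TPM in mcPCs, with a log2 ratio of 0.56 (0.53 to 0.59) that was -0.01 with counts scaled to the same total and -1.25 on TPM. Slc23a1 and Slc23a3 were below 0.3 TPM in both. The 7 ascorbate-related genes with a row had 1 on each side of 2-fold and a median of -0.02. On the mcPC side was Glrx, a glutaredoxin, at 5.60, and on the VSMC side was Slc2a3, a glucose and dehydroascorbate carrier, at -1.45.

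The nucleoside carriers were all of the equilibrative Slc29 family, since no gene of the concentrative Slc28 family has a row. Slc29a1 (ENT1), which sets adenosine levels outside many cells, had 4.64 TPM in VSMCs against 6.66 TPM in mcPCs, with a log2 ratio of 2.33 (2.23 to 2.44). ENT1 is also a protein of the erythrocyte membrane, and the 17 erythrocyte genes had a median log2 ratio of 7.94, with sums of 7210 TPM in VSMCs against 542350 TPM in mcPCs. Their part in this value was not tested. Slc29a4 (PMAT), which carries monoamines as well as adenosine, was at 5.41 (4.78 to 6.12), with 7 reads per VSMC sample against 145 reads per mcPC sample, and at 2.52 to 5.14 under the alternatives. Slc29a3, the lysosomal member, was even at 0.09 (0.00 to 0.18), with 6.37 TPM in VSMCs against 1.91 TPM in mcPCs, and was at -0.50 with counts scaled to the same total. Of 20 genes of nucleoside metabolism 7 were at least 2-fold higher in mcPCs (against 22.0% of all genes) and 1 in VSMCs (against 13.9%). The median was 0.50. Adenosine kinase Adk (3.13) and the ecto-enzyme Nt5e (4.54), which makes adenosine from AMP, were on the mcPC side. Entpd1, which makes AMP from ATP, was on the VSMC side at -3.12.

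Of the choline and heme carriers, Slc44a2, Slc44a1 and Slc48a1 were among the 8 most abundant transporters in each cell type and differed by under 2-fold. Slc44a2 had 92.7 TPM in VSMCs against 28.3 TPM in mcPCs, with a log2 ratio of 0.10 (0.08 to 0.13). Slc44a1, the main choline carrier of the family, had 27.9 TPM and 11.5 TPM, with a log2 ratio of 0.55 (0.51 to 0.59). Slc48a1, which lets heme out of lysosomes, had 108 TPM and 35.8 TPM, with a log2 ratio of 0.24 (0.20 to 0.27). With counts scaled to the same total these 3 ratios were -0.46, -0.13 and -0.33, so their sign depended on the scaling. Slc44a4, a carrier of thiamine pyrophosphate, had only 5.67 reads per VSMC sample and 9.33 reads per mcPC sample, at a log2 ratio of 1.53 (0.61 to 2.49). The 10 genes of choline use with a row had 1 on the mcPC side, 2 on the VSMC side and a median of 0.00. The VSMC side held Flvcr2 at -3.23, a choline carrier, and Chpt1 at -1.12, the last enzyme of phosphatidylcholine synthesis. By contrast 10 of 18 heme genes passed 2-fold in favour of mcPCs (against 22.0% of all genes) and 0 in favour of VSMCs (against 13.9%), with a median of 1.16. They included the heme synthesis enzymes Fech (3.87) and Alad (1.97), which red cell precursors use heavily, and Hmox1 (2.92), which breaks heme down. The part of the erythrocyte transcripts in these values was not tested.

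The peptide carriers fell on both sides of an even ratio. Slc15a3, a lysosomal peptide and histidine carrier known from immune cells, had 1.80 TPM in VSMCs against 9.06 TPM in mcPCs, with a log2 ratio of 4.14 (4.00 to 4.28). The related Slc15a4 was at 0.80 (0.71 to 0.88). Slc15a1, the intestinal peptide carrier PEPT1, was on the VSMC side at -0.77 (-0.97 to -0.57), with 2.48 TPM and 0.425 TPM, and its sign was the same under all scalings tried. In mcPCs the 5 of 11 microglia and macrophage markers with a row summed to 12 TPM. The part of such cells in the Slc15a3 value was not tested.

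Of the vesicular and lysosomal carriers, Slc18a2 (VMAT2), which loads monoamines into vesicles, was at 1.26 (1.07 to 1.45), with 1.24 TPM in VSMCs against 0.839 TPM in mcPCs. Slc17a5, the lysosomal sialic acid exporter sialin, was at 1.15 (1.02 to 1.28), with 2.74 TPM and 1.74 TPM. Both were negative on TPM, at -0.51 and -0.63. The vesicular glutamate and nucleotide carriers Slc17a8 (1.61) and Slc17a9 (1.53) were under 0.8 TPM in both cell types. Slc17a3, a renal organic anion carrier, rested on 14.7 reads per VSMC sample and 2.35 reads per mcPC sample, and its interval was -3.02 to -0.46. Of 7 monoamine genes with a row 4 passed 2-fold toward mcPCs (against 22.0% of all genes), and the median was 1.85. Toward VSMCs 1 passed it (against 13.9%), the serotonin carrier Slc6a4 at -4.12. Tph1, which starts serotonin synthesis, was at 5.64 and Maob, a monoamine oxidase, at 4.87.

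The Slc10 genes lay between -0.22 and 0.96. Slc10a3, of unknown substrate, was the most abundant at 14.7 TPM in VSMCs against 5.63 TPM in mcPCs, with a log2 ratio of 0.45 (0.37 to 0.53), or -0.12 with counts scaled to the same total. Slc10a1, the bile acid uptake carrier of liver, had 13.3 reads per sample in each cell type. Of 9 pumps and scaffold genes that work beside organic anion carriers 6 passed 2-fold toward mcPCs (against 22.0% of all genes), with a median of 1.81. Toward VSMCs 0 did (against 13.9%). Those on the mcPC side included the scaffold gene Slc9a3r1 (2.35) and the efflux pumps Abcb1a (4.40), Abcc4 (2.95) and Abcg2 (2.20). Of these, Abcb1a and Abcg2 are also on the endothelial list, and Abcc4 was under 0.8 TPM in both cell types. Of 7 thyroid hormone genes 3 passed 2-fold toward mcPCs (against 22.0% of all genes) and 1 toward VSMCs (against 13.9%), with a median of 0.93. They were the carriers Slc16a10 (6.63) and Slc7a5 (2.49) and the binding protein gene Crym (2.10), against the receptor gene Thrb at -3.21. Slc16a10 rested on 6.33 reads per VSMC sample, and Crym was under 0.8 TPM in both cell types. Of 9 carnitine genes 0 passed 2-fold toward mcPCs and 1 toward VSMCs, with a median of 0.10. That was Cpt1a, the gatekeeper of mitochondrial fatty acid import, at -1.38.

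Other scalings and pseudocounts changed the ratios of the transporters by unequal amounts. Of the 22 genes at least 2-fold higher in mcPCs, 12 were so under every scaling and pseudocount tried, and 7 turned negative on TPM as it stands. On that scale only 13.7% of all genes were above 0. The shares of all genes that match these 2 counts were not computed, so the counts describe the transporters alone. The 12 were Slc22a8, Slc22a4, Slc22a6, Slc22a23, Slc22a18, Slc19a1, Slc15a3, Slc29a4, Slco1a4, Slco1c1, Slco2a1 and Slco2b1. Slc22a8 kept the highest ratio in each, from 5.73 on TPM to 7.61.

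**Figure D4:**
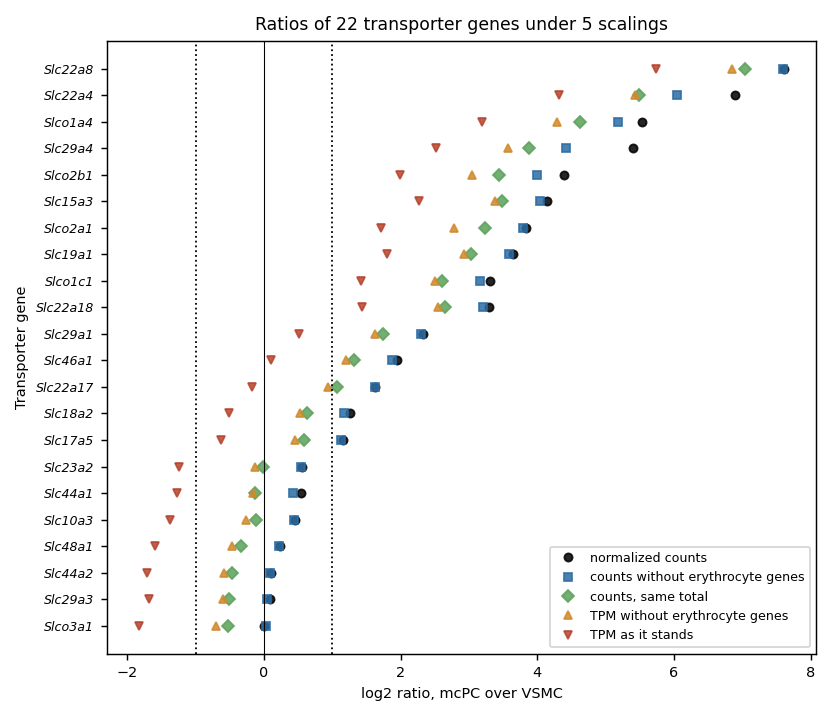
Log2 ratio, mcPC over VSMC, of the 22 transporter genes given in full, under 5 scalings of the same values. Slc22a8 runs from 5.73 on TPM as it stands to 7.61 on normalized counts, and Slco3a1 from -1.83 on TPM to 0.04 on counts scaled without erythrocyte genes. Dotted lines mark 2-fold.

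RefSeq (GRCr8) has 93 protein-coding rat genes of these 16 families, and 49 of them have no row in the table, which requires 1 read or more from every sample. The families Slc13, Slc28 and Slc47 have no row at all. The organic cation transporters Slc22a2 and Slc22a3, the anion carrier Slc22a7, the thiamine carrier Slc19a3 and the peptide carrier Slc15a2 are among the 49. A gene without a row may still be expressed in some of the samples, so no level is given for it. Of the transporters that are listed, 34 had the same effective length in both cell types and 3 differed by more than 1.1-fold (6.82%, against 4.38% of all genes). The third of these was Slco2a1, with 3263 bases in VSMCs and 3761 bases in mcPCs.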

How the data were processed

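Poly(A) RNA of 3 VSMC and 3 mcPC samples was sequenced, each library in 4 runs. The authors trimmed reads with Eoulsan, quantified transcripts of the Rnor_6.0 Ensembl annotation with Salmon 0.8.0, collapsed them to genes through tximport and normalized with DESeq2. Genes without at least 1 read in every sample had been dropped. The authors' mean TPM, mean estimated counts (per run), mean normalized counts (a signal, scaled by DESeq2 for depth and transcript length) and mean effective lengths were used as deposited for each cell type. The table's further columns hold the authors' overall mean, log2 fold change, its standard error, p-value and adjusted p-value, and were not used. With means only, the planned test (edgeR's quasi-likelihood) was not run.

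Estimated counts multiplied by 12 runs gave reads per cell type (whole within 0.02 for 71.4% of genes in VSMCs and 72.5% in mcPCs) and a mean depth per sample of 62.0 M reads (M, 1e6) in VSMCs and 48.0 M reads in mcPCs. The ratio of mean normalized counts was taken with no pseudocount, and genes at least 2-fold apart were counted. Exact (Clopper-Pearson) 95% intervals used the summed reads. Full values are given for genes with 0.8 TPM in either cell type and at least 2-fold, for the 8 most abundant in each cell type, and for those with 5 TPM in either that differed by under 1.25-fold (22 in all). The members and lists were chosen with earlier results of these data known. Alternatives were TPM (pseudocount 0.1), other scalings, pseudocounts and filters. On simulated data 92.0% of 200 changed genes, among 14607, were recovered within 0.3 on the log2 scale. The changed genes were drawn from genes with more reads than several transporters had in VSMCs, so recovery at low counts was not tried. In a separate draw with counting error alone, 95.0% of intervals held the true ratio, which says nothing of the spread between isolations. Promoter sequences came from RefSeq (GRCr8), matched by symbol. Software was numpy 2.4.6, scipy 1.17.1, pandas 2.3.3 and matplotlib 3.10.9 under Python 3.11.15.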

Additional observations from a re-analysis of the deposited data

How the results depend on the processing

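The count of transporters at least 2-fold higher in mcPCs, 22 of 44, was 12 on mean TPM as it stands, 9 of 26 with at least 0.8 TPM in VSMCs (34.6%, against 13.1% of all genes so filtered) and 14 at 4-fold, and between 15 and 25 under the other settings. With at least 0.8 TPM in either cell type it was 15 of 32 (46.9%, against 17.0% of all genes so filtered). With the whole counting interval past 2-fold it was 21 of 44 (47.7%, against 18.7% of all genes). For the other settings no share over all genes is given in either direction. The count higher in VSMCs, 1, was 0 with 10 normalized counts added, on centred TPM, with counts scaled without the erythrocyte list, under each of the 3 filters on low values, at 4-fold and with the whole counting interval past 2-fold. It was 2 with counts scaled to the same total, 3 with TPM scaled without the erythrocyte list and 16 on TPM as it stands. The median log2 ratio, 1.06, was 0.82 with 10 normalized counts added, 0.45 with counts scaled to the same total, 0.32 with TPM scaled without the erythrocyte list, 0.55 and 0.84 with at least 0.8 TPM in VSMCs or in either cell type, and -0.56 on TPM as it stands, where the median of all genes was -1.72. On that scale 15 of 44 transporters were above 0 in place of 39, and 13.7% of all genes were. Among the genes given in full that were at least 2-fold higher in mcPCs, Slc17a5 (-0.63), Slc18a2 (-0.51) and Slc22a17 (-0.17) changed sign there. No paired analysis was possible because the table holds means of each cell type. For the same reason no sample was left out in turn. Of the transporters, 5 had fewer than 30 reads over all VSMC samples, which limits their ratios.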
